A study of Mus musculus with 5 samples.

Results

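Hepatocytes, the main cells of the liver, were ordered within each mouse by the balance of 6 pericentral and 6 periportal transcripts, and the lowest of 3 equal ranges of that rank, the most periportal cells, is described here as the periportal range. It held 149 of the 449 cells ranked and of the 454 in the table. The cells were chosen by measured values. P was the summed level of Cyp2e1, Glul, Oat, Cyp1a2, Rgn and Lect2 per 10000 unique molecular identifiers (UMIs, each marking 1 captured mRNA), Q was the same sum for Cyp2f2, Sds, Hal, Hsd17b13, Ass1 and Uroc1, and the score was the natural log of (P + 1)/(Q + 1). The cells came from Drop-seq, a droplet method, of livers of male C57BL/6J littermates that were 8 weeks old when they went onto a regular chow diet (LFD) or a high fat diet (HFD), on which they stayed for 12 weeks. The range held 44 cells of LFD mouse 1, 28 of LFD mouse 2, 69 of HFD mouse 2 and 8 of HFD mouse 3, and values are given below for these 4 mice in that order. HFD mouse 1, with 5 cells, was not ranked. No genotype or agent other than diet is given in the labels, and how the hepatocytes were freed from the liver is not given there.

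Liver lobules are supplied with blood at the portal tracts and drained at the central vein, so hepatocytes along the way meet falling oxygen, nutrient and hormone levels. Periportal hepatocytes are known for gluconeogenesis, urea production from amino acid nitrogen and the secretion of plasma proteins. Pericentral hepatocytes, next to the central vein and its Wnt signals, are known for glutamine synthesis, bile acid synthesis and the breakdown of foreign compounds.

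The 537655 UMIs of the periportal range were divided as 185955, 109483, 220955 and 21262 over the mice. Levels are given as CPM, the UMIs of a gene per 1000000 UMIs outside the 12 score genes in the same mouse and range. A count of 0 allowed up to 16.2, 27.6, 13.6 and 142 CPM (3 counts), so low levels could not be read in HFD mouse 3. Such limits cover counting error only. All 12 hepatocyte markers were found in the range, and they summed to 105787 UMIs. Of 8 cholangiocyte markers, which belong to the bile ducts of the portal tract, Sox9, Spp1, Tstd1 and Tm4sf4 together had 167 UMIs and the defining markers Krt19, Krt7, Epcam and Cftr were at 0. That list summed to 357, 368, 268 and 94.7 CPM in the periportal range and to 136, 54.1, 53.2 and 172 CPM in the pericentral range, so it was higher periportally in 3 of 4 mice. Cells with 3 or more UMIs of another cell type's markers numbered 8, 4, 6 and 0 in the periportal range, 1, 5, 3 and 0 in the middle range and 3, 1, 2 and 1 in the pericentral range. Their part in the results was not tested beyond leaving them out, after which 91 of the 104 genes called below passed again. Macrophage, endothelial and stellate cell markers came to 4, 6 and 10 UMIs, and T or NK cell, B cell and neutrophil markers to 0. No cell barcode was shared between mice. HFD mouse 3 stood apart: in its 8 cells the antiprotease gene Serpina1e was at 189 CPM, against 4131 to 8298 CPM in the range of the others, and the pheromone carrier gene Mup3 at 14344 CPM, against 37115 to 54348 CPM. Without it the first comparison below gave 143 genes in place of 104, of which 102 were shared.

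The score genes describe the choice and support nothing. Median Q in the range was 49.2, 57.8, 41.1 and 55.9 per 10000 UMIs, and median P was 5.54, 0, 1.34 and 5.06. In the pericentral range, median P was 70.9, 78.4, 67.6 and 39.7. P was 0 in 6, 17, 34 and 3 of the members. Cyp2f2, a cytochrome P450 much used as a periportal marker, stood at 1731, 2132, 1036 and 1183 CPM in the range and at 525, 149, 102 and 57.2 CPM in the pericentral range. Ass1, the urea cycle enzyme that makes argininosuccinate, was flatter, at 1001, 1333, 991 and 1373 CPM and 724, 947, 471 and 858 CPM. The last cell inside the range scored -1.30, -2.71, -1.77 and -1.35 and the first cell outside it -1.28, -2.63, -1.75 and -1.32. The cells on either side thus scored nearly alike. Within 0.25 of the boundary lay 4, 6, 13 and 2 cells inside and 8, 2, 9 and 2 cells outside.

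Cells of the range were deeper than the others, with a mean of 3499 against 2964 UMIs per cell, higher in 4 of 4 mice against the 2 other ranges together. In LFD mouse 2 the middle range was deeper (4461 against 3910 UMIs per cell), and in HFD mouse 2 the pericentral range was (3572 against 3202). Genes per cell were higher in 3 of 4 mice. For UMIs, the two-sided exact permutation p was 0.125, the smallest that 4 mice allow. Mitochondrially encoded mRNAs made up 2.103% of UMIs against 1.67%, also higher in 4 of 4 mice (exact permutation p = 0.125). Of the 104 genes that passed in the comparison below, 89 passed again without the cells under 1500 UMIs. With the same cells left out and the rest thinned to 1500 UMIs for the score, an alternative added after the data were seen, 80 did.

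Sums of UMIs per mouse and range were then compared over genes outside the score, with mouse as a block, the periportal range against the mean of the middle and pericentral ranges. Of 2892 genes tested, 53 were higher (1.83%) and 51 lower (1.76%) in the periportal range at an adjusted p under 0.05 (limma voom). Of these, 45 and 41 had the same sign in each of the 4 mice. For 4 of the 41 (Mup9, Mup18, Cyp7a1 and Cyp2c54), however, HFD mouse 3 had 0 UMIs in every range. Its sign there comes from the constant added before the log. For Mup17 and Cyp2c50 that mouse had 0 UMIs periportally, 3 and 2 in the middle range and 1 and 2 pericentrally. The higher genes were led by secreted plasma proteins, one subset of major urinary proteins and enzymes of glucose and amino acid metabolism, and the lower ones by cytochromes P450 and another subset of major urinary proteins. Among the 12 genes per direction of smallest p with 1 sign in the 4 mice, fitted log2 differences ranged from 0.53 (Trf) to 1.80 (Etnppl) and from -0.88 (Gstm1) to -2.75 (Cyp2c50). Fewer cells of a kind and less RNA per cell cannot be told apart in such sums.

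**Figure D1:**
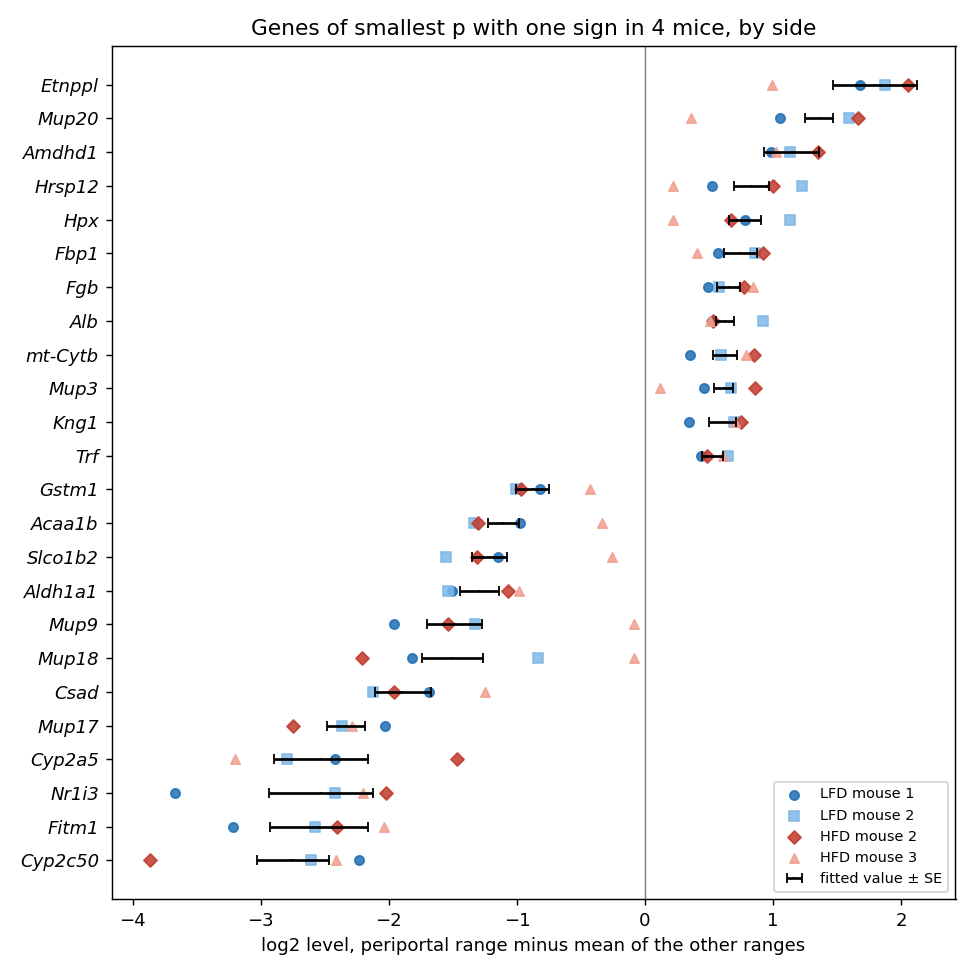
Each point is 1 mouse's log2 level in the periportal range minus the mean of its other ranges, for 12 genes of either direction (smallest p with 1 sign in the 4 mice); black bars are fitted values ± SE. The mice lie on the same side of 0 by the way the genes were picked, and HFD mouse 3, with 8 cells, is nearest to 0 for Mup20, Hpx, Mup3, Slco1b2, Mup9 and Mup18 among others.

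Albumin (Alb, the main plasma protein, chr5:90460897-90476602 on GRCm38) stood at 45774, 53079, 51393 and 51269 CPM in the periportal range, at 40995, 45295, 46374 and 47026 CPM in the middle range and at 26789, 21463, 31952 and 31863 CPM in the pericentral range. Every mouse was highest periportally and lowest pericentrally (log2 difference 0.63 ± 0.07 SE, voom adjusted p = 2.5e-09). Fibrinogen beta (Fgb), a clotting protein, was at 6626, 7379, 7999 and 7338 CPM in the range against 4189, 4571, 4084 and 4119 CPM pericentrally (log2 difference 0.65 ± 0.09 SE, voom adjusted p = 4.95e-07). Each mouse was higher periportally than pericentrally, on the same sums that gave the call. Transferrin (Trf, the iron carrier of plasma) was at 8740.5, 10403, 8481 and 12498 CPM against 6188, 6167, 5962 and 6750.2 CPM (log2 difference 0.53 ± 0.08 SE, voom adjusted p = 1.07e-05). Haemopexin (Hpx), which binds free haem, reached 3921, 4034, 1273 and 2935 CPM against 1809.5, 1406, 732 and 2689 CPM (log2 difference 0.78 ± 0.12 SE, voom adjusted p = 1.04e-05), with little difference in HFD mouse 3. Kininogen (Kng1), the precursor of bradykinin, was at 2932, 3722, 3372 and 3124 CPM against 2189.5, 2353, 1952 and 2002 CPM (log2 difference 0.61 ± 0.11 SE, voom adjusted p = 5.59e-05).

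Of 30 tested plasma carriers and acute phase proteins, 10 rose and 0 fell, with a median log2 difference of 0.26, against 0.01 over all genes tested. Over all 2892 genes, 1.83% rose and 1.76% fell, and the list counts below stand beside the same shares. With a minimum of 200 UMIs over the sums, 65 rose and 67 fell of 844 genes. Calls were thus commoner among genes with many UMIs, and the part of this in the list counts was not tested. Those 10 were Alb, Trf, Hpx, Serpina1e, Serpina1d, Serpina1b, Cp, Gc, Ttr and Hp. Transthyretin (Ttr), a carrier of thyroid hormone and retinol, had the smallest difference among them (0.25 ± 0.07 SE). Of 39 complement and coagulation genes, Fgb, Kng1 and the fibrinogen gamma chain Fgg (0.57 ± 0.12 SE) rose and 0 fell, with a median of 0.16. Fgg did not pass without HFD mouse 2 (0.40, voom adjusted p = 0.167). Serpina1e, an antiprotease of a family of close copies, was at 7345, 8298, 4131 and 189 CPM in the range and 4415, 2772, 1011 and 229 CPM pericentrally (log2 difference 0.87 ± 0.13 SE, voom adjusted p = 2.33e-06). It was higher in 3 mice and lower in HFD mouse 3.

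Enzymes of gluconeogenesis rose together in part, 4 of 11 tested with 0 lower and a median of 0.35. Fructose bisphosphatase (Fbp1) was at 1725, 2077, 2759 and 2509 CPM in the range against 941, 825, 1252 and 1544 CPM pericentrally (log2 difference 0.75 ± 0.13 SE, voom adjusted p = 3.2e-05). The entry enzyme of the pathway, phosphoenolpyruvate carboxykinase (Pck1), was at 1460.4, 1838, 1382 and 1420.2 CPM against 796, 1434, 524 and 744 CPM (log2 difference 0.71 ± 0.14 SE, voom adjusted p = 0.000319). Both were higher in the periportal than in the pericentral range of each mouse. Glucose-6-phosphatase (G6pc), which frees glucose for release, was at 287, 294, 332 and 663 CPM against 145, 189, 164 and 229 CPM (log2 difference 0.73 ± 0.22 SE, voom adjusted p = 0.0493). Got1, an aspartate aminotransferase that also serves the urea cycle, was the fourth (0.82 ± 0.22 SE). Pck1 did not pass without HFD mouse 2 (0.47, voom adjusted p = 0.114). Got1 had voom adjusted p = 0.065 when LFD mouse 1 was left out (0.83), 0.0825 for LFD mouse 2 (0.89) and 0.244 for HFD mouse 2 (0.68).

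Among 15 tested genes of the urea cycle and ammonia handling, 13 lay above 0, 3 rose and 1 fell, with a median of 0.35. Arginase (Arg1), the last step of the cycle, was at 1504, 1581, 1477 and 1326 CPM against 949.98, 1109, 814 and 858 CPM pericentrally (log2 difference 0.57 ± 0.13 SE, voom adjusted p = 0.00241). Liver glutaminase (Gls2), which releases ammonia from glutamine, was at 362, 285, 286 and 379 CPM against 99.5, 149, 73.7 and 114 CPM (log2 difference 1.05 ± 0.25 SE, voom adjusted p = 0.00459). In each mouse these 2 genes were higher periportally than pericentrally, on the same sums that gave the calls. The rate-limiting enzyme Cps1 had a difference of 0.35 ± 0.12 SE and Otc of 0.36 ± 0.14 SE, and neither passed (voom adjusted p = 0.13 and 0.233). Without HFD mouse 2, Arg1 (0.45, adjusted p = 0.135) and Gls2 (0.88, adjusted p = 0.142) did not pass, nor did Gls2 without LFD mouse 1 (0.96, adjusted p = 0.0624).

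Of 35 genes of amino acid catabolism, 3 rose and 0 fell, and the median of 0.08 was near that of all genes. Amdhd1, of histidine breakdown as the score gene Hal is, was at 471, 487, 391 and 426 CPM against 190, 149, 110.5 and 286 CPM (log2 difference 1.15 ± 0.21 SE, voom adjusted p = 0.000175). Tat, the first enzyme of tyrosine breakdown, and Got1 were the others. Etnppl, which breaks down phosphoethanolamine, had the largest difference among the 12 higher genes named (log2 difference 1.80 ± 0.33 SE, voom adjusted p = 0.000116). It was at 259.6, 248, 223 and 237 CPM in the range, 121, 169, 127 and 205 CPM in the middle range and 54.3, 27, 24.6 and 57.2 CPM in the pericentral range. Hrsp12, a deaminase of reactive amino acid intermediates, was at 1612, 2252, 2427 and 1894 CPM against 1022, 689.8, 1088 and 1487 CPM (log2 difference 0.83 ± 0.14 SE, voom adjusted p = 2.16e-05). Tat passed by a small margin (0.51 ± 0.15 SE). It had voom adjusted p = 0.23 when LFD mouse 1 was left out (0.41), 0.19 for LFD mouse 2 (0.51) and 0.0998 for HFD mouse 2 (0.56).

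Promoter sequence is shown for 3 of the higher genes and 1 lower gene that results above and below turn on: 250 bases before the transcript start, from RefSeq on GRCm38.p6, in the direction of transcription. Capitals mark GTTAAT (the core of sites of the hepatocyte factor HNF1), CTTTGA (part of the sites of TCF factors, which act with beta-catenin) and ACGTCA (the core of cAMP response elements), on either strand. The Alb promoter (chr5:90460620-90460869, + strand), the G6pc promoter (chr11:101367466-101367715, + strand), the Pck1 promoter (chr2:173152823-173153072, + strand) and the promoter of the glutamate transporter gene Slc1a2 (chr2:102706188-102706437, + strand) read:
Alb: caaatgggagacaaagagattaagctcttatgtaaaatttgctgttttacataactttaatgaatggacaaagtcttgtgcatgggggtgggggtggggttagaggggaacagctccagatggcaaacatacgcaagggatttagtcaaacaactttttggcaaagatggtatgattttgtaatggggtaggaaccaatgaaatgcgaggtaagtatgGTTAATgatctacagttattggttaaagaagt
G6pc: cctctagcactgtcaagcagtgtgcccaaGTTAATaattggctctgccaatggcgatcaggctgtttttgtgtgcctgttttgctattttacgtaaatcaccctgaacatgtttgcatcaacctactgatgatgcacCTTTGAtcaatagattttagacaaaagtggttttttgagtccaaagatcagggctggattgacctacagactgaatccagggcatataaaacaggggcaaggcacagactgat
Pck1: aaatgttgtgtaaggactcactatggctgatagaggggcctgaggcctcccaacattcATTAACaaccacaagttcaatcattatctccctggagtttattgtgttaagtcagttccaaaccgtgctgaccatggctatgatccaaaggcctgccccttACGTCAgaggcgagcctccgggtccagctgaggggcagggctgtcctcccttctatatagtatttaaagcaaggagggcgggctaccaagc
Slc1a2: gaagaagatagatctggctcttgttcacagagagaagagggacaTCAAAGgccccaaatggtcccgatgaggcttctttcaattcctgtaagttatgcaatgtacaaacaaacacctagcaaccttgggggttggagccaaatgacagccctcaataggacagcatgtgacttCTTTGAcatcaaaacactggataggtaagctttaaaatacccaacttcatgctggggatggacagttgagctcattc
GTTAAT stands 32 bases before the RefSeq start in Alb, 221 before it in G6pc and, reversed, 192 before it in Pck1. For Alb that start lies before the GENCODE gene start given above (90460897). ACGTCA stands 91 bases before the start in Pck1, and CTTTGA 113 bases before it in G6pc and, in Slc1a2, 77 bases before it and, reversed, 206. Promoters were found in the RefSeq table for 38 of the 53 higher genes, 40 of the 51 lower genes and 2208 of the genes tested. GTTAAT, read on both strands, was in 11 of the 38 (28.9%), 4 of the 40 (10%), 5.53% of the genes tested and 6.52% of all 27025 promoters of that length. The 11 were Alb, Apoc2, Cp, Fgb, G6pc, Gc, Pck1, Serpina1b, Serpina1d, Serpina1e and Tm4sf4, so 3 are copies within the Serpina1 cluster. CTTTGA was in 15.8%, 17.5%, 12.5% and 14% of the same 4 sets, and ACGTCA in 7.89%, 5%, 11% and 6.56%. In all, 11 motifs were searched on both strands after the calls were known, and the 4 promoters were picked after their matches were seen. A longer form shares its matches with the shorter one. The longer HNF1 form, GTTAAT followed after 1 base by the letters ATT, was in 3 of the 38 and 0 of the 40. It was in 0.861% of the genes tested and 0.411% of all promoters. The longer TCF form CTTTGAT was in 5.26%, 5%, 2.58% and 3.23% of the higher, lower, tested and all promoters. The full cAMP element TGACGTCA was in 0%, 0%, 2.67% and 1.62%. The HNF4 motif CAAAGTCCA was in 0%, 5%, 0.453% and 0.381%, and its first part CAAAGT in 23.7%, 22.5%, 13.4% and 12.5%. The C/EBP motif TTGCGCAA was in 0%, 0%, 0.226% and 0.17%. The CCAAT box was in 52.6%, 50%, 39.1% and 34.5%, and the TATA motif TATAAA in 7.89%, 25%, 7.97% and 13%. A match is a stretch of letters, and binding was not measured.

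The major urinary proteins (Mup), pheromone carriers that the male mouse liver secretes, split in both directions: of 16 tested, 3 rose and 4 fell, with a median of 0.03. Mup20 (chr4:62050234-62054158), which encodes the male pheromone darcin, was at 17746, 21614, 33482 and 7527 CPM in the periportal range, 11194, 14459, 17403 and 8205 CPM in the middle range and 7111, 4382, 7538 and 4862 CPM in the pericentral range (log2 difference 1.36 ± 0.11 SE, voom adjusted p = 1.89e-14). Mup3 (chr4:62083476-62087342) was at 37115, 37264, 54348 and 14344 CPM against 24509, 19651, 27111 and 10926 CPM pericentrally (log2 difference 0.62 ± 0.07 SE, voom adjusted p = 1.18e-08), and Mup21 had a difference of 0.79 ± 0.15 SE. Mup17 (chr4:61591929-61595871) ran the other way, at 654, 855, 195 and 0 CPM in the periportal range, 1469, 2443, 689 and 154 CPM in the middle range and 5293, 9846, 2987 and 57.2 CPM in the pericentral range (log2 difference -2.33 ± 0.15 SE, voom adjusted p = 1.13e-17). Genes of the same cluster on chromosome 4 thus had opposite slopes in the same cells. Mup9 (-1.49 ± 0.21 SE), Mup18 (-1.51 ± 0.24 SE) and Mup11 (-0.76 ± 0.18 SE) also fell. Mup20 was higher in the periportal than in the pericentral range of 4 of 4 mice. It was higher than in the middle range of 3, HFD mouse 3 being the exception. Mup17 was lower than in both in 4 of 4. In HFD mouse 3, though, Mup17 had 0, 3 and 1 UMIs in the 3 ranges, and 0 UMIs allow 142 CPM. The direction of Mup17 in that mouse could not be read. The copies are close in sequence, and no source used here says how reads shared between them were counted, so levels of single copies are uncertain. The median of the family was near that of all genes tested, 0.03 against 0.01. With library totals as the only scaling it was so too, -0.09 against -0.11.

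**Figure D2:**
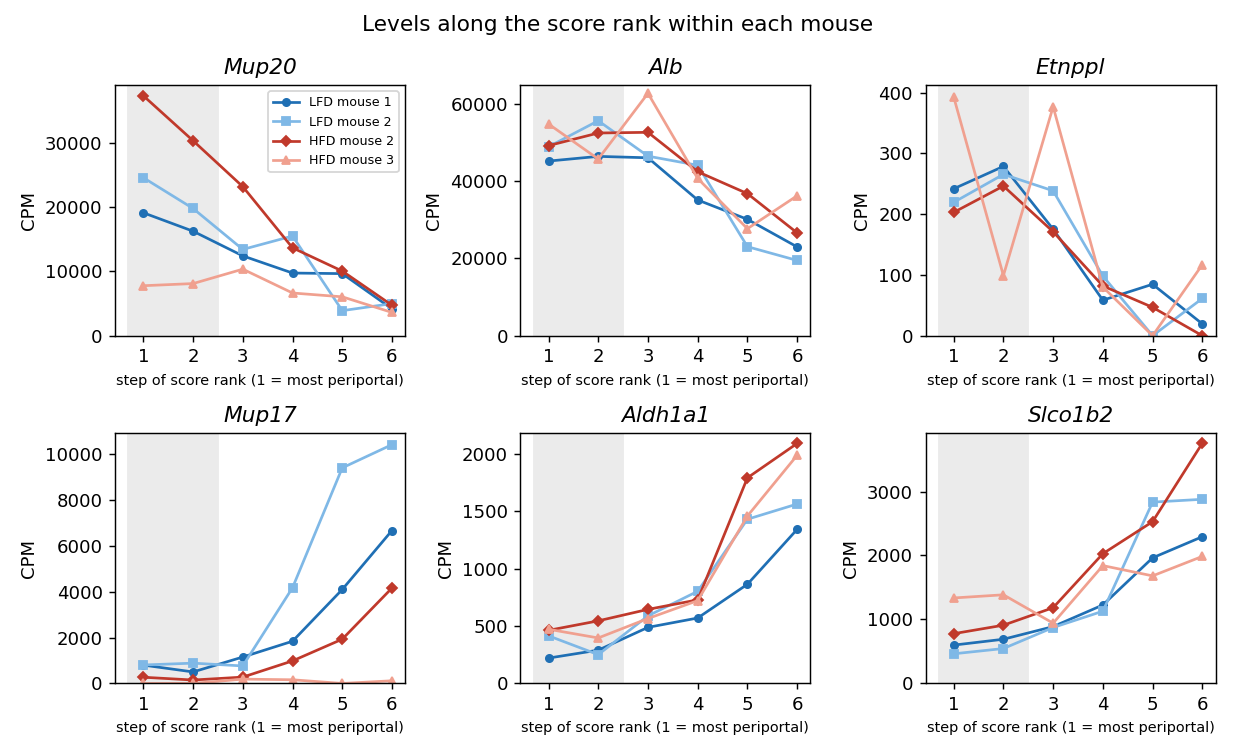
CPM in 6 equal steps of the score rank (1 is the most periportal), 1 line per mouse. The shaded first 2 steps make up the periportal range in the LFD mice. In each HFD mouse they also hold a cell from just outside it. Mup20 falls at each step in LFD mouse 1 and HFD mouse 2, and falls less evenly in LFD mouse 2. Aldh1a1 climbs over its last 3 steps in each mouse, as Slco1b2 and Mup17 do in each but HFD mouse 3. The 25 cells of HFD mouse 3 leave few in each step.

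Along 6 equal steps of the rank, the mean level of Mup20 over the 4 mice was 22219, 18638, 14856, 11400, 7419 and 4383 CPM. It sloped within the first 2 steps, where 3 of 4 mice were higher in the first than in the second. Alb was at 49506, 50048 and 51959 CPM in the first 3 steps and at 40582, 29401 and 26318 CPM in the last 3, with 1 of 4 mice higher in the first than in the second. Amdhd1 was at 520.1 and 347 CPM in the first 2 steps, higher in the first in 3 of 4 mice. These levels are a description with no test.

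Of 42 xenobiotic genes tested, 11 fell and Gstp1 alone rose, with a median of -0.21. Cyp2c50, a cytochrome P450 of the Cyp2c family, was at 91.9, 91.9, 18.2 and 0 CPM in the range, 317, 419, 191 and 103 CPM in the middle range and 669.5, 1001, 536 and 114 CPM in the pericentral range (log2 difference -2.75 ± 0.28 SE, voom adjusted p = 2.32e-10). Cyp2c29 of the same family was at 195, 129, 72.7 and 663 CPM against 2678, 2759, 1059.9 and 400.4 CPM (log2 difference -2.66 ± 0.23 SE, voom adjusted p = 8e-13), and HFD mouse 3 went the other way. Coumarin hydroxylase (Cyp2a5) had 8 UMIs in the range against 166 in the other ranges, a ratio of levels of 0.0835 (95% interval 0.0355 to 0.168 for counting error), at 21.6, 27.6, 4.54 and 0 CPM against 416, 717, 156 and 686 CPM (log2 difference -2.53 ± 0.37 SE, voom adjusted p = 1.9e-06). Few of the UMIs of Cyp2c50 and Cyp2a5 were thus in the range. Gstm1, a glutathione transferase, was at 957, 708, 473 and 757 CPM against 2334, 2367, 1281 and 1316 CPM (log2 difference -0.88 ± 0.13 SE, voom adjusted p = 3.32e-06). Nr1i3, the nuclear receptor CAR that controls many of these enzymes, had 9 UMIs in the range against 147 outside it (ratio of levels 0.106, 95% interval 0.0476 to 0.207; log2 difference -2.53 ± 0.41 SE, voom adjusted p = 1.2e-05). Cyp2c and Gstm genes have close copies, with the same doubt on counting as the Mup genes.

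Transport, bile acid and lipid genes were also among the lower ones. The uptake transporter Slco1b2 was at 644, 515, 849.9 and 1326 CPM in the range against 2117, 2854, 3110 and 1831 CPM pericentrally (log2 difference -1.21 ± 0.14 SE, voom adjusted p = 3.82e-09). Cyp7a1, the rate-limiting enzyme of bile acid synthesis, was at 5.41, 0, 13.6 and 0 CPM against 81.4, 122, 159.6 and 0 CPM (log2 difference -2.07 ± 0.44 SE, voom adjusted p = 0.00141), with 0 UMIs in all ranges of HFD mouse 3. Those were the 2 that fell of 18 bile acid genes, and 0 rose. Aldh1a1, which makes retinoic acid, was at 254, 312, 509 and 473 CPM against 1086, 1488, 1932 and 1716 CPM (log2 difference -1.29 ± 0.15 SE, voom adjusted p = 6.33e-09). Csad, of taurine synthesis, was at 54.1, 45.9, 199.97 and 47.3 CPM against 271, 473, 1326 and 400.4 CPM (log2 difference -1.89 ± 0.22 SE, voom adjusted p = 5.63e-09). Both were lower in the periportal than in the pericentral range of each mouse. Of 25 genes of fatty acid oxidation, 20 lay below 0 with a median of -0.30, but only the peroxisomal thiolase Acaa1b fell, at 768, 607, 895 and 2036 CPM against 2298, 2840.1, 4064 and 4977 CPM (log2 difference -1.10 ± 0.12 SE, voom adjusted p = 2.5e-09). Fitm1, which helps form lipid droplets, had 8 UMIs in the range and 122 outside it (ratio of levels 0.114, 95% interval 0.0480 to 0.231; log2 difference -2.55 ± 0.38 SE, voom adjusted p = 3.77e-06). Slc1a2, whose promoter is shown above, was at 5.41, 0, 9.09 and 0 CPM against 99.5, 94.7, 135 and 0 CPM (log2 difference -2.52 ± 0.47 SE, voom adjusted p = 0.000151), and is the urea and ammonia gene that fell.

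Lists of known zone genes outside the score were taken from general knowledge with earlier results known, so their directions are no independent evidence. Of 39 periportal zone genes tested, 37 lay above 0, 17 rose and 0 fell (median 0.49). Of 27 pericentral zone genes, 1 lay above 0, 0 rose and 22 fell (median -1.29). Over all genes, 1484 of 2892 lay above 0.

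**Figure D3:**
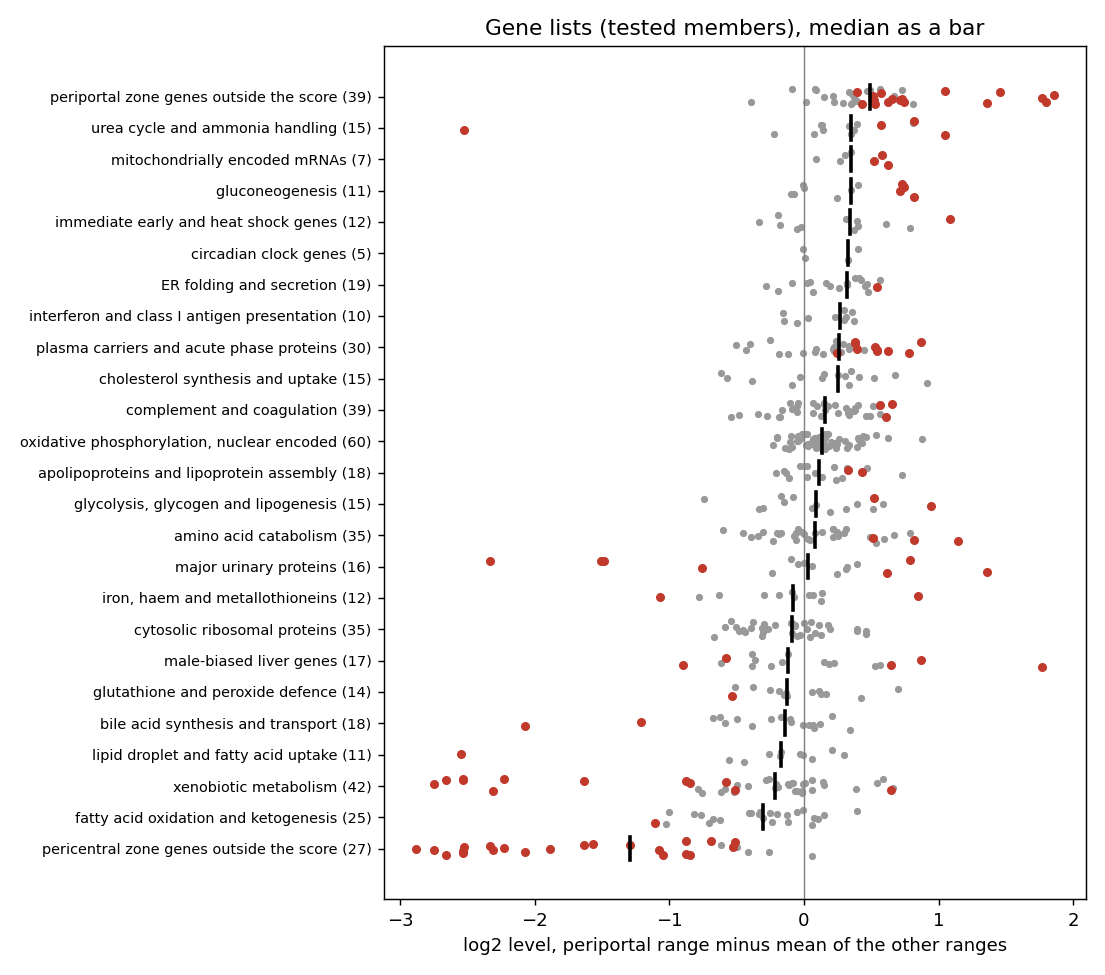
Each point is a tested gene of the list named at left (number tested in brackets), red where it passed at an adjusted p under 0.05; the black bar is the list's median log2 difference. Nearly all members of the 2 zone lists and all 7 mitochondrially encoded mRNAs lie on one side of 0, while the major urinary proteins reach from -2.33 to 1.36.

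Among genes of energy metabolism, mitochondrially encoded mRNAs passed in part and nuclear genes of oxidative phosphorylation did not. Of 7 mitochondrially encoded mRNAs tested, 7 lay above 0 and mt-Cytb, mt-Co1 and mt-Nd5 rose (median 0.35). The cytochrome b mRNA mt-Cytb was at 6701, 7599.8, 7181 and 10036 CPM in the range against 4533, 4598, 3863 and 6121 CPM pericentrally (log2 difference 0.63 ± 0.09 SE, voom adjusted p = 2.33e-06), and the share of such mRNAs is also a sign of RNA quality, whose part in this was not tested. The 60 nuclear genes of oxidative phosphorylation had a median of 0.14 (47 above 0), and 0 passed in either direction by voom. At an unadjusted p under 0.05 were 7 of the 60, against 368 of all 2892 genes tested. In the list of glycolysis, glycogen and lipogenesis, the citrate lyase Acly rose (0.94 ± 0.22 SE). Of 19 genes of protein folding and secretion, 16 lay above 0 and the chaperone Hspa5 rose (0.54 ± 0.15 SE, median 0.32). Without HFD mouse 2, mt-Co1 (0.43, voom adjusted p = 0.191), mt-Nd5 (0.30, adjusted p = 0.579), Acly (0.80, adjusted p = 0.114) and Hspa5 (0.56, adjusted p = 0.129) did not pass. Nor did mt-Nd5 without LFD mouse 1 (0.48, adjusted p = 0.139), or Acly (0.94, adjusted p = 0.0547) and Hspa5 (0.55, adjusted p = 0.159) without LFD mouse 2.

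Other lists held few calls. Apoc2 and Apoc3 rose among 18 apolipoprotein and lipoprotein genes, Gadd45g among 12 immediate early and heat shock genes, and Alas1, the first enzyme of haem synthesis, among 12 iron and haem genes, where the biliverdin reductase Blvrb fell. Sod1, which removes superoxide, fell among 14 genes of glutathione and peroxide defence. Nr1i3 and Slc1a2 fell among 4 Wnt targets, and Fitm1 among 11 lipid droplet genes. Of these, Apoc2, Apoc3, Gadd45g, Alas1, Blvrb and Sod1 lost the call when 1 of the mice LFD 1, LFD 2 or HFD 2 was left out, with adjusted p from 0.0594 to 0.568. Serpina1e, Gstp1 (not without HFD mouse 2, 0.48, voom adjusted p = 0.068) and Hsd17b6 rose and Cyp2d9 and Elovl3 fell among 17 male-biased genes. In 4 lists nothing passed: cholesterol synthesis (15 tested), cytosolic ribosomal proteins (35), interferon and class I antigen presentation (10) and clock genes (5). At an unadjusted p under 0.05 they held 4, 7, 2 and 0 genes, against 368 of all 2892 genes tested. The 40 calls of limma-trend were all among the 104 of voom, so it gave none in these lists either. Rplp1, a ribosomal gene, passed without HFD mouse 3 (-0.49, voom adjusted p = 0.043). Tm4sf4, on the cholangiocyte marker list, rose as well (log2 difference 1.22 ± 0.37 SE, voom adjusted p = 0.0493), at 157, 221, 123 and 47.3 CPM in the range against 54.3, 13.5, 32.7 and 172 CPM pericentrally, and the part of bile duct RNA was not tested beyond the defining markers at 0.

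Limits of this comparison were as follows. Without HFD mouse 2 the 104 calls became 41, of which 40 were among the 104, and without LFD mouse 2 they became 63, of which 61 were. With library totals as the only scaling the median over all genes was -0.11, and the calls were 31 higher and 79 lower, so the even split of 53 and 51 rests on the normalization factors.

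Against the middle range alone, 1 gene was higher (0.0346%) and 9 were lower (0.311%), so the periportal range differed in few genes from its neighbour. Mup20 was the one higher (log2 difference 0.73 ± 0.12 SE, voom adjusted p = 0.000249). The lower ones were Mup17, Cyp2c50, Cyp2c29, Csad, Slco1b2, Fitm1, Aldh1a1, Cldn2 and Fnbp1l. Cldn2 encodes a tight junction pore and had 2 UMIs in the range. Mup17 had the smallest p (log2 difference -1.41 ± 0.16 SE, voom adjusted p = 1.4e-08), and Alb did not pass (0.22 ± 0.08 SE, voom adjusted p = 0.485). The count was 5 without LFD mouse 2, 4 without HFD mouse 2 and 21 without HFD mouse 3.

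Against the pericentral range, 105 genes were higher (3.63%) and 95 lower (3.28%). Each of the 12 higher and 12 lower genes named in the first comparison passed here too, with larger differences. The same pericentral sums also entered the first comparison, so this is no separate evidence. Etnppl was higher by 2.77 ± 0.38 (log2, SE), Mup20 by 1.99 ± 0.12 and Alb by 1.03 ± 0.08, and the values of Cyp2a5, Nr1i3 and Mup17 were -4.29 ± 0.42, -3.41 ± 0.46 and -3.25 ± 0.17. The count of 200 was 113 without LFD mouse 2 and 103 without HFD mouse 2. With library totals as the only scaling it was 65 higher and 153 lower, around a median of -0.18.

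Diet was compared inside the periportal range, with the 4 mice as replicates. Of 1923 genes tested, 7 were higher (0.364%) and 20 lower (1.04%) in HFD mice at an adjusted p under 0.05 (limma voom). HFD mice lay wholly above LFD mice in 306 genes (15.9%) and wholly below in 466 (24.2%), so absence of overlap between 2 and 2 mice is common. The higher genes included Apoa4, Cyp4a14 and Elovl5, and the lower ones Cyp3a11, 6 genes of the male-biased list and 2 major urinary protein genes. The HFD side rests on 77 cells, of which 69 are of HFD mouse 2. Values below with 1 mouse left out set 1 mouse of one diet against 2 of the other, and the lone mouse is assumed to vary as the others do.

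**Figure D4:**
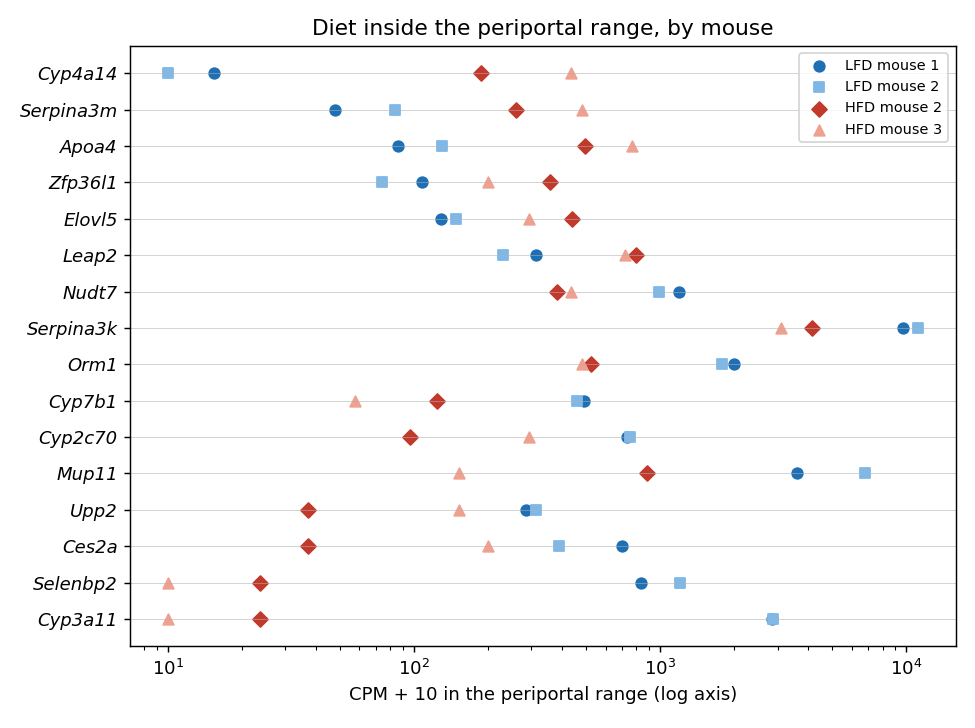
CPM + 10 on a log axis in the periportal range of each mouse (2 LFD, 2 HFD) for the 16 genes named in the diet comparison. The 2 HFD mice lie on one side of the 2 LFD mice for each gene by the way the genes were picked; HFD mouse 3 has 0 UMIs of Cyp3a11 and Selenbp2.

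Apoa4, an apolipoprotein of fat-rich lipoproteins, was at 75.7, 119, 486 and 757 CPM, so both HFD mice were well above both LFD mice (log2 difference 2.55 ± 0.34 SE, voom adjusted p = 0.00167). Cyp4a14, a fatty acid hydroxylase and a known target of the fatty acid sensor PPARalpha, had 48 UMIs in the HFD mice and 1 in the LFD mice, a ratio of levels of 58.5 (95% interval 10 to 2357 for counting error), at 5.41, 0, 177 and 426 CPM (voom adjusted p = 0.00553). Elovl5, which lengthens polyunsaturated fatty acids, was at 119, 138, 427 and 284 CPM (log2 difference 1.69 ± 0.32 SE, voom adjusted p = 0.0147). In each of these 3 genes, both HFD mice lay above both LFD mice by the way the genes were picked.

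The other genes that rose with the high fat diet have other roles. Leap2, a secreted peptide that blocks the ghrelin receptor, was at 303, 221, 786 and 710.1 CPM (log2 difference 1.57 ± 0.26 SE, voom adjusted p = 0.00562). Zfp36l1, which promotes mRNA decay, was at 97.4, 64.3, 345 and 189 CPM (log2 difference 1.98 ± 0.38 SE, voom adjusted p = 0.0147). Serpina3m, a serine protease inhibitor, was at 37.9, 73.5, 249.97 and 473 CPM (log2 difference 2.57 ± 0.44 SE, voom adjusted p = 0.00885). Its neighbour Serpina3k ran the other way, at 9638, 11138, 4131 and 3077 CPM (log2 difference -1.45 ± 0.20 SE, voom adjusted p = 0.00167), and the close copies of this family carry the same doubt on counting. The seventh gene was Gm6484, a predicted gene model. Without LFD mouse 2, Leap2 (1.43), Zfp36l1 (1.83), Serpina3m (2.88), Serpina3k (-1.36), Elovl5 (1.81) and Cyp4a14 (4.68) did not pass, with voom adjusted p from 0.0643 to 0.161. Nor did Elovl5 without HFD mouse 2 (1.26, adjusted p = 0.285) or Cyp4a14 without HFD mouse 3 (4.96, adjusted p = 0.0504).

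Cyp3a11 (chr5:145854426-145879964), a major drug-metabolising cytochrome P450, was nearly absent from the periportal range of the HFD mice. It was at 2834, 2867, 13.6 and 0 CPM, 3 UMIs against 836 in the LFD mice, a ratio of levels of 0.00437 (95% interval 0.000899 to 0.0128 for counting error; voom adjusted p = 0.000102). Selenbp2, a selenium-binding protein, was at 828, 1195, 13.6 and 0 CPM, 3 UMIs against 283 (ratio 0.0129, 95% interval 0.00265 to 0.0381; voom adjusted p = 0.00167). HFD mouse 3 had 0 UMIs of both, which allows 142 CPM. Orm1, an acute phase plasma protein, was at 1990.4, 1774, 514 and 473 CPM (log2 difference -1.84 ± 0.22 SE, voom adjusted p = 0.000737). Cyp2c70, which makes the muricholic acids of mouse bile, was at 725, 744, 86.4 and 284 CPM (log2 difference -2.86 ± 0.32 SE, voom adjusted p = 0.000576). Cyp7b1, an oxysterol hydroxylase of bile acid synthesis, was at 481, 450.3, 114 and 47.3 CPM (log2 difference -2.04 ± 0.36 SE, voom adjusted p = 0.00968). The HFD mice were below the LFD mice for all 5, again by the way the genes were picked.

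The carboxylesterase Ces2a was at 692, 377, 27.3 and 189 CPM (log2 difference -3.79 ± 0.52 SE, voom adjusted p = 0.00167) and the uridine phosphorylase Upp2 at 276, 303, 27.3 and 142 CPM (log2 difference -2.93 ± 0.45 SE, voom adjusted p = 0.005). Nudt7, which breaks down coenzyme A in peroxisomes, was at 1179, 983, 373 and 426 CPM (log2 difference -1.44 ± 0.23 SE, voom adjusted p = 0.00555). Mup11 was at 3597, 6800.3, 873 and 142 CPM (log2 difference -2.90 ± 0.47 SE, voom adjusted p = 0.00555). The 10 lower genes named so far also included Serpina3k, and the other 10 were Mup7, Alas1, Hsd17b2, Saa1, Egfr, Igfbp2, Gstp1, C8b, Hpx and Aldh1l1, of which Alas1 overlapped between the diets. Without HFD mouse 2, which holds most HFD cells, Cyp2c70 (-1.25, voom adjusted p = 0.259), Ces2a (-1.30, adjusted p = 0.315), Upp2 (-0.80, adjusted p = 0.66) and Nudt7 (-1.26, adjusted p = 0.145) did not pass. Without HFD mouse 3, Selenbp2 (-5.86, adjusted p = 0.127) and Upp2 (-3.21, adjusted p = 0.0608) did not, and without LFD mouse 2, Mup11 (-2.46, adjusted p = 0.149), Cyp7b1 (-2.02, adjusted p = 0.0643) and Upp2 (-2.93, adjusted p = 0.0643) did not.

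Lists of genes showed the diets by their medians, beside -0.02 over all genes tested, of which 930 of 1923 lay above 0. Of 16 male-biased genes, 14 lay below 0, 6 fell and 0 rose (median -1.49). The 6 were Selenbp2, Nudt7, Cyp7b1, Gstp1, Egfr and C8b. Of 15 major urinary protein genes, 13 lay below 0, Mup11 and Mup7 fell and 0 rose (median -1.26). Mup20, the gene of smallest p on the periportal side, had a diet difference of -0.09 ± 0.46 SE and Mup3 of -0.24 ± 0.41 SE, and neither passed. For both, HFD mouse 2 lay above the LFD mice and HFD mouse 3 below them. Of 36 xenobiotic genes, 4 fell and 0 rose (median -0.43). Of 28 plasma carriers and acute phase proteins, Orm1, Serpina3k, Saa1 and Hpx fell and Serpina3m rose (median -0.14). Of 35 amino acid genes, 30 lay below 0 (median -0.46), and none passed by voom in either direction. At an unadjusted p under 0.05 were 11 of the 35, against 258 of all 1923 genes tested.

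Lists with positive medians held few calls. Of 22 genes of fatty acid oxidation, 16 lay above 0 and Cyp4a14 alone rose (median 0.30). Of 10 lipid droplet and fatty acid uptake genes, 8 lay above 0 and none passed by voom (median 0.46, 4 at an unadjusted p under 0.05). Over all 1923 genes tested, 258 had an unadjusted p that low. Plin2, the lipid droplet coat protein, was at 238, 193, 449.9 and 379 CPM (log2 difference 1.04 ± 0.27 SE, voom adjusted p = 0.0792). The HFD mice were above the LFD mice without passing the test. Of 9 genes of the immediate early and heat shock list, which cell isolation can also raise, 9 lay above 0 and none passed by voom (median 1.23, 5 at an unadjusted p under 0.05). Jun, one of them, was at 184, 82.7, 327 and 426 CPM (log2 difference 1.39 ± 0.35 SE, voom adjusted p = 0.0746), and the part of isolation in the diet comparison was not tested. Of 17 bile acid genes, 2 fell, and the median was 0.07.

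Of the 27 genes called by diet and the 104 called by position, 4 were shared, Alas1, Gstp1, Hpx and Mup11, which is 14.8% and 3.85% of the lists. Of the 104, 88 were among the 1923 genes tested for diet. Limits of the diet comparison were as follows. The calls depended on the mouse left out, each such fit setting 1 mouse of a diet against 2 of the other. Without LFD mouse 2, only a smaller part of the 27 was called. Without HFD mouse 2, which holds most HFD cells, more genes were called but most of the 27 were lost. Without LFD mouse 1 or HFD mouse 3, more genes were called, with all or most of the 27 among them. With limma-trend on log2 CPM the count was 3, all among the 27. With the 5 cells of HFD mouse 1 added it was 4. Without cells that had 3 or more UMIs of another cell type's markers it was 14, and Serpina3m, Elovl5 and Zfp36l1 were among the calls lost.

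The last comparison asked whether the difference between the periportal range and the other ranges itself changed with diet. Of 2892 genes tested, 1 was higher (0.0346%) and 2 were lower (0.0692%) by limma voom. Cyp3a11 was at 2834, 2867, 13.6 and 0 CPM in the periportal range, 3006, 3056, 68.9 and 103 CPM in the middle range and 4270.4, 3800.4, 225 and 1430.1 CPM in the pericentral range. The LFD mice were high in each range and the HFD mice highest pericentrally (log2 -3.25 ± 0.59 SE, voom adjusted p = 0.00196). In HFD mouse 3, whose pericentral range holds 8 cells, Cyp3a11 was at 2578 CPM in step 5 of the rank and 234 CPM in step 6. Mup11 was at 3597, 6800.3, 873 and 142 CPM in the periportal range, 4919.6, 9556, 1993 and 51.3 CPM in the middle range and 5501, 6762, 5831 and 1029.7 CPM in the pericentral range (log2 -1.51 ± 0.25 SE, voom adjusted p = 0.000837). In HFD mouse 3, Mup11 was at 1681 CPM in step 5 and 350.5 CPM in step 6. HFD mouse 2 reached the LFD level pericentrally and not periportally. Id3, an inhibitor of helix-loop-helix factors, was at 10.8, 0, 95.4 and 142 CPM periportally, 40.4, 32.3, 37.1 and 0 CPM in the middle range and 90.5, 40.6, 102 and 114 CPM pericentrally (log2 3.54 ± 0.75 SE, voom adjusted p = 0.021), and rests on 2, 0, 21 and 3 UMIs in the periportal range.

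**Figure D5:**
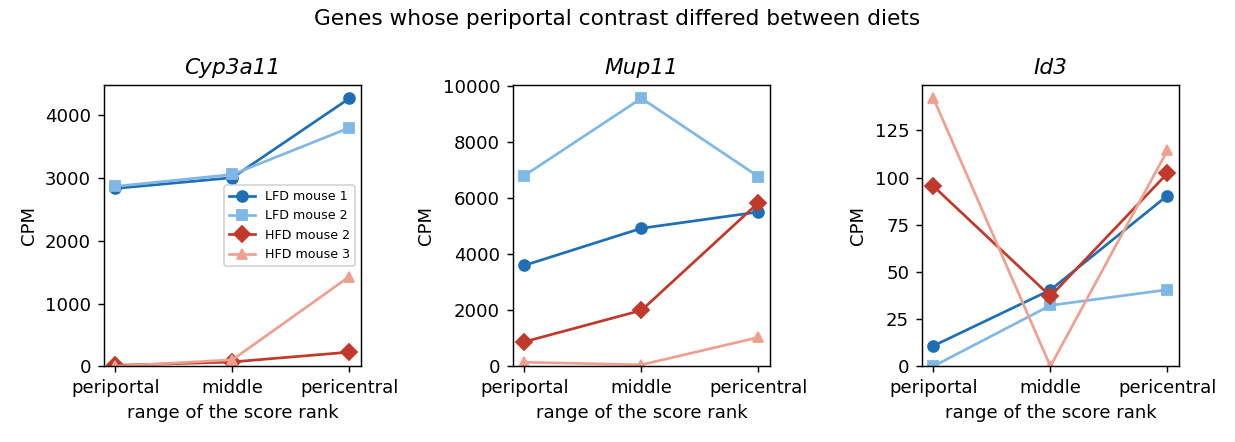
CPM of the 3 genes by range of the score rank, 1 line per mouse. The HFD lines of Cyp3a11 lie near 0 in the periportal and middle ranges; Mup11 of HFD mouse 2 climbs to the LFD level in the pericentral range; Id3 is at 142 CPM or less in each mouse and range.

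Each of these calls depended on single mice. Leaving out LFD mouse 1 ended the call of Cyp3a11 (-3.44, voom adjusted p = 0.0809) and of Id3 (4.02, adjusted p = 0.993). Leaving out LFD mouse 2 ended all 3, with values of -3.22 for Cyp3a11 (voom adjusted p = 0.31), -1.30 for Mup11 (adjusted p = 0.348) and 3.19 for Id3 (adjusted p = 0.998). The value of Mup11 was -0.40 when HFD mouse 2 was left out (voom adjusted p = 0.91), and that of Cyp3a11 was -2.71 when HFD mouse 3 was (adjusted p = 0.361). The counts without LFD mouse 1, LFD mouse 2, HFD mouse 2 and HFD mouse 3 were 1, 0, 10 and 4. The genes next in order of p were Stt3a and Acp2 among the higher (voom adjusted p = 0.326 and 0.351) and Mup7 among the lower (-0.89, adjusted p = 0.999), and none passed.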

How the data were processed

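Hepatocytes of 5 mice were profiled by Drop-seq. The submitters' processing notes name STAR 2.6.0a and the build mm10. Other steps are not given in the labels. The deposited table holds the natural log of 1 plus UMIs per 10000 of each cell, as its values show. UMIs came back whole for 100% of values within 0.001. No gene or cell was removed, no doublet caller was run, and 0 columns were unmapped. A second, smoothed table was not used.

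UMIs outside the 12 score genes were summed per mouse and range. The 12 sums entered limma voom (version 3.58.1, in R 4.3.3) with own trimmed-mean factors and mouse as a block, because each mouse gives all 3 ranges; genes needed 50 UMIs over the sums and a UMI in 3 mice. Without the replicate block, 19, 0 and 60 genes passed in place of 104, 10 and 200. Diet was tested on the 4 periportal sums (30 UMIs), where LFD and HFD mice share only the number 2, so that no pairing was possible. Depth was compared with SciPy 1.17.1. A gene passed at a Benjamini-Hochberg adjusted p under 0.05. Mice, not ranges, are the replicates. Each mouse was 1 Drop-seq experiment, so mouse and library cannot be told apart. HFD mouse 3 carries a read label of a form unlike the rest, and whether it was run apart from them is not stated. Without it, most of the 27 diet calls passed again within a larger set. Named were 12 genes per direction, by p, with 1 sign in all 4 mice, the 10 by diet with no overlap, up to 3 of each list, and up to 3 of the last comparison; other genes were named after their values were seen. Members and lists were chosen with earlier results of these data known. Gene positions are from GENCODE vM21, promoters from RefSeq.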

Additional observations from a re-analysis of the deposited data

Results flagged for a closer look

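For 3 genes the difference between the periportal range and the other ranges was itself unlike between the diets by the interaction term of limma voom. The HFD value minus the LFD value of that log2 difference was -1.51 for Mup11, -3.25 for Cyp3a11 and 3.54 for Id3. The periportal range of HFD mouse 3 holds 8 cells, and Id3 has 2, 0, 21 and 3 UMIs in the range of LFD mice 1 and 2 and HFD mice 2 and 3.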

How the results depend on the processing

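Over the alternatives, the calls of named genes in the first comparison stayed the same in 837 values and were lost in 181, in the diet comparison in 289 and 57, and in the last one in 34 and 21, with no reversal among called genes. The first count of 104 became 40 with limma-trend, 19 on means of the deposited log values, 173 with the lowest 2 of 4 equal parts of the rank as members and 19 with no replicate block, and 41 to 143 with 1 mouse left out. The middle-range count of 10 became 16 with no factors, 17 with no minimum, 1 with limma-trend, 0 on log means, 0 with the lowest 1 of 4 parts, 1 when ranked by periportal genes alone, 5 on thinned cells (added after seeing the data), 0 with no replicate block and 4 to 21 with 1 mouse left out. The pericentral count of 200 became 78 with limma-trend, 77 on log means, 60 with no replicate block and 103 to 240. The diet count of 27 became 13 with a higher minimum, 3 with limma-trend, 49 with the lowest 1 of 4 equal parts of the rank as members and 83 with the lowest 2 of 4, 55 and 70 when ranked by periportal or pericentral genes alone, 61 with a score on UMIs plus 1, 43 without the 5% of cells with most UMIs, 56 without cells under 1500 UMIs, 14 without cells with UMIs of another type, 4 with HFD replicate 1, and 8 to 119 with 1 mouse left out. The last count of 3 became 6 with no minimum, 0 with limma-trend and on log means, 1 with periportal genes alone, 1 on thinned cells and 0 to 10. The causes were not tested.

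With library totals as the only scaling, higher calls made up 28.2% in place of 51.0% in the first comparison and 29.8% in place of 52.5% against the pericentral range. Among genes that had not passed, Uqcrq, of the respiratory chain, turned to 0.0053 (pericentral genes alone), 0.041 (without the top 5% of cells) and 0.017 (without cells of another type). The ribosomal gene Rps14 turned to 0.010 (limma-trend), 0.075 (lowest 1 of 4 parts) and, with mice left out, ranged from -0.1299 to 0.001853, and Rplp1 turned to 0.076 (log means). H2-Q10, of class I antigen presentation, turned to -0.092 (no factors), -0.0061 (higher minimum), -0.078 (log means), -0.00051 (lowest 1 of 4 parts), -0.014 (without cells of another type), -0.014 (2 sums per mouse) and -0.03983 to 0.07631 with mice left out. In the other direction, genes that had not passed came to pass, among them Rplp1 (lower, in 2 values) and B2m (higher, in 1) in the first comparison and Mup7 (lower, in 2) in the last. Depth limits HFD mouse 3 most, where 0 UMIs allow 142 CPM.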
